A study of Mus musculus with 30 samples.

Results

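The comparison set glomeruli of wild-type mice at 24 weeks of age against glomeruli of wild-type mice at 16 weeks. It used the 8 of the 30 arrays of the series that are titled as wild-type glomeruli of those ages, 4 per age, and every gene that passed a filter on low signal, 22892 in all. All mice of the series were female and of the BTBR strain, either wild type (BTBR WT) or ob/ob, a genotype without functional leptin that becomes obese and diabetic on this background. Glomeruli were collected by pressing kidneys through sieves, and the total RNA of each animal was hybridised to its own mouse transcriptome array; the series also holds wild-type arrays at 4 weeks (3) and 8 weeks (4) and as many ob/ob arrays at each of the 4 ages. The groups compared here carried no transgene or treatment and differed in the labels only by age, 16 or 24 weeks.

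The glomerulus is the capillary tuft that filters plasma. Podocytes wrap the capillaries and carry the slit diaphragm, a fenestrated endothelium lines them, and mesangial cells hold the loops together. Kidney cells, like those of most organs, run a circadian clock in which Arntl (BMAL1) with Clock or Npas2 drives the genes of their own repressors (Per, Cry, Nr1d1 and Nr1d2) and output factors such as Dbp, so that Arntl and Dbp peak at opposite times of day. MicroRNAs are short RNAs that pair through a seed near their 5′ end with target messages.

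Values are log2 signals as the authors deposited them, and differences are 24 minus 16 weeks with their standard error after ±. The 4 values of a group are given in the order of the replicate numbers in the titles, and arrays are called by those numbers, so that the second array is replicate 2. Deposited values reached 19.93, and 1.39% of the values used exceeded 16, more than a 16-bit scanner can record; the scale had been widened by an unstated step, so no linear folds are given. The 8 arrays correlated with each other at 0.984 to 0.996 across genes, which are not independent replicates. The separation of exon from intron control probe sets, the chance that an exon control is the brighter of a random pair, averaged 0.864 ± 0.023 at 24 weeks and 0.855 ± 0.016 at 16 weeks (SD, n = 4 each, two-sided exact permutation p = 0.571). Medians of the intron controls were 5.73 to 6.31, the level read here as background. With 4 arrays per age, which sets the precision, a difference had a median standard error of 0.13. Podocyte, endothelial and mesangial markers stood above background in all 8 arrays, among them Nphs1 (nephrin, 9.83 to 12.26), Pecam1 (10.91 to 12.40) and Pdgfrb (11.04 to 13.43). So did markers of the tubule, which a sieved preparation carries along, such as Slc34a1, the proximal phosphate transporter (19.28 to 19.45), and Umod, uromodulin of the thick ascending limb (18.77 to 19.60).

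Of the 22892 genes, 2 passed an adjusted p of 0.05 (limma with Benjamini-Hochberg adjustment), which is 0.00874% of those tested. Both were lower at 24 weeks and none was higher. Without adjustment 1471 genes (6.43%) had a p under 0.05, 858 of them higher (3.75%) and 613 lower (2.68%) at 24 weeks. The 4 values of each age did not overlap for 501 genes (2.19%), 337 higher (1.47%) and 164 lower (0.716%). The median of all differences was 0.02. The count depended on single arrays: it was 150 without the fourth 24 week array, 56 without the second 16 week array, and 0 or 1 without any of the other 6. Where genes set an array apart, leaving it out removes their spread, so their calls without it are a description and no test.

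**Figure D1:**
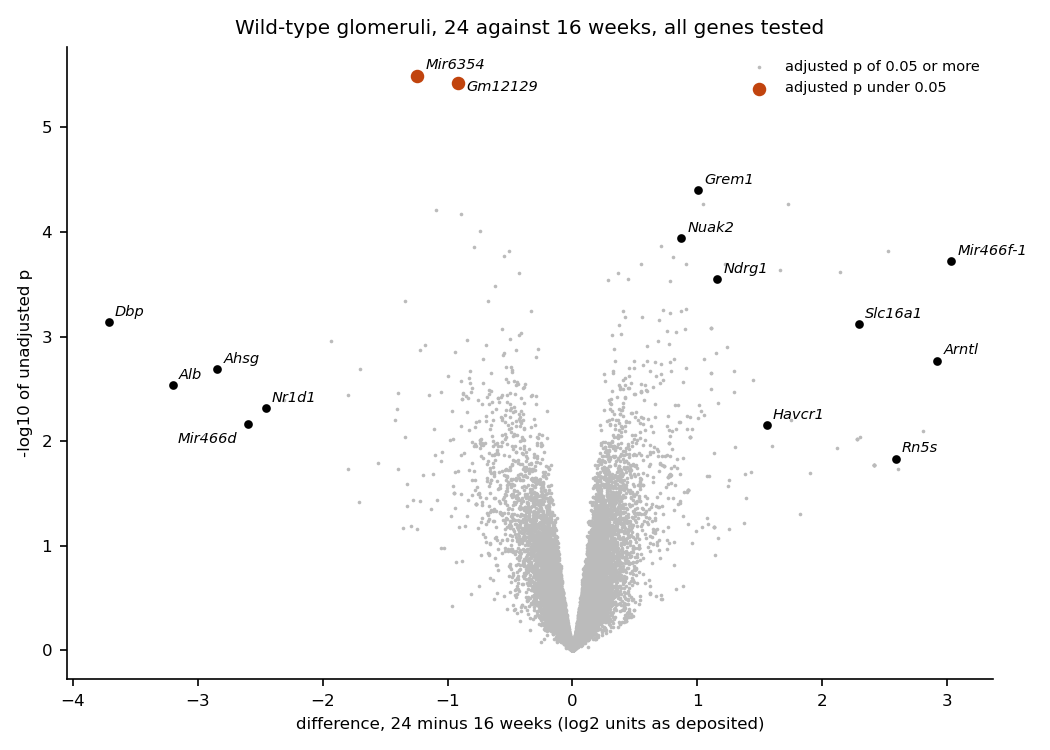
Each dot is 1 of the 22892 genes, with its difference between 24 and 16 weeks (log2 units as deposited, horizontal) and the negative log10 of its unadjusted p from limma (vertical). The 2 genes past an adjusted p of 0.05, Mir6354 and Gm12129, are drawn larger, and the widest differences, such as those of Dbp, Arntl and Mir466f-1, lie lower on the vertical axis.

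The gene with the smallest p was Mir6354, which encodes a microRNA. Its mature sequence in RefSeq (build GRCm38.p6) is given because this is the only microRNA past the threshold, with the seed, bases 2 to 8, in capitals.
mmu-miR-6354, chr1:169019041-169019061, minus strand: uGCCCUGGggaucaggucucu
Its signal was 4.67, 4.06, 4.00 and 4.47 in the 4 arrays at 24 weeks and 5.98, 5.26, 5.36 and 5.58 at 16 weeks. Every 24 week array was thus below every 16 week array, and all 8 values lay below the intron control median of their own array. The difference was -1.24 ± 0.17 (adjusted p = 0.0428). Wild-type means were 4.87 ± 0.18 at 4 weeks (SD, n = 3) and 5.30 ± 0.10 at 8 weeks (SD, n = 4), and ob/ob means were 4.58 at 16 and 4.29 at 24 weeks. The probe set's own identifier places it on chromosome 11 and the RefSeq table places the gene on chromosome 1. Identifier and table name the same chromosome for 99.7% of all probe sets and for 94.4% of those for microRNAs, so the identity of this transcript is uncertain.

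Gm12129, listed as a pseudogene, was the other. Its signal was 9.78, 10.31, 9.98 and 10.19 at 24 weeks and 10.88, 11.12, 11.05 and 10.87 at 16 weeks. The groups did not overlap, and the difference was -0.92 ± 0.13 (adjusted p = 0.0428). The 16 week level stood highest among the wild-type ages, with means of 10.62 ± 0.22 at 4 weeks (SD, n = 3) and 10.36 ± 0.14 at 8 weeks (SD, n = 4). A pseudogene can share sequence with its parent gene, so which transcript was read is uncertain.

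For both genes the call was lost in several settings. Leaving out each of the 8 arrays in turn gave an adjusted p of 0.00392 to 0.205 for Mir6354 and of 0.00488 to 0.263 for Gm12129, with the difference of each staying negative.

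The named genes of smallest p that were higher at 24 weeks did not pass the threshold. Grem1, a secreted antagonist of bone morphogenetic proteins, had 7.55, 7.07, 7.23 and 7.18 at 24 weeks and 6.47, 5.99, 6.31 and 6.26 at 16 weeks, with no overlap (1.00 ± 0.17, adjusted p = 0.219). Itgb6, the integrin β6 subunit that with αv activates latent TGF-β, had 12.78, 12.78, 12.98 and 12.08 against 11.54, 12.12, 11.35 and 10.74 (1.22 ± 0.24, adjusted p = 0.243). Only the lowest 24 week array and the highest 16 week array of Itgb6 overlapped, and its 16 week mean lay below the means of 13.64 ± 0.15 at 4 weeks (SD, n = 3) and 12.84 ± 0.20 at 8 weeks (SD, n = 4). Nuak2, a kinase of the AMPK-related family, had 9.92, 9.78, 10.36 and 9.87 against 9.09, 9.39, 8.90 and 9.05 (0.87 ± 0.16, adjusted p = 0.243). Nuak2 and Itgb6 were the only genes besides Mir6354 and Gm12129 that passed both without the second 16 week array and without the fourth 24 week array, 4 genes that make up 7.14% of the first set and 2.67% of the second. The remaining 7 were H2bc14, a histone H2B (0.91), Spsb3, a ubiquitin ligase adaptor (0.36), Ndrg1, a stress and hypoxia responsive gene (1.16), Zfp580 (0.29), Rflnb, which binds filamin (0.78), Cradd, an adaptor of caspase 2 (0.41), and Slc16a1, the monocarboxylate transporter MCT1 (2.29), with adjusted p from 0.243 to 0.41.

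Slc16a1 and Ndrg1 shared a pattern across the arrays. Slc16a1 had 12.41, 12.64, 12.26 and 11.27 at 24 weeks and 9.16, 11.84, 9.30 and 9.10 at 16 weeks. Ndrg1 had 18.48, 18.28, 18.20 and 18.19 against 16.68, 18.13, 16.65 and 17.06. In both genes the second 16 week array lay near the 24 week values and the other three lay well below them. Without that array the differences were 2.96 (adjusted p = 0.00227) for Slc16a1 and 1.49 (adjusted p = 4.25e-05) for Ndrg1. Wild-type means of Slc16a1 were 12.58 ± 0.40 at 4 weeks (SD, n = 3) and 11.98 ± 0.65 at 8 weeks (SD, n = 4), near the 24 week values.

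Among the named genes of smallest p that were lower at 24 weeks, clock and plasma protein genes were frequent, and none passed. Dbp, Bhlhe41 and Per3 belong to the clock, and Trf (transferrin), Ahsg (fetuin-A) and Cps1 (carbamoyl-phosphate synthase, which opens the urea cycle) are known as liver genes. The other 4 were Bsph2, a sperm-binding protein homologue (-0.62 ± 0.13, adjusted p = 0.266), Tex46 (-0.43 ± 0.10), Tet1, which oxidises 5-methylcytosine (-0.28 ± 0.07), and Gpr135, an orphan receptor (-0.29 ± 0.07). Bsph2 had 5.51, 5.15, 5.29 and 5.39 at 24 weeks and 5.99, 6.05, 5.77 and 6.0 at 16 weeks. These values did not overlap but lay at the level of the intron controls.

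The clock genes held the widest differences of the 33 gene lists. Of 20 listed clock genes 18 were tested; none passed the threshold, 4 were higher and 9 lower at an unadjusted p under 0.05, beside 3.75% and 2.68% of all genes, and their median difference was -0.75 against 0.02 over all genes. With array quality weights 14 of the 18 were called, where 943 genes were called in all. Those weights were 5.643 for the fourth 16 week array and 0.422 for the second, the lowest of its group. The 16 week level in that fit thus rested mostly on a single array. Dbp, a transcription factor whose level follows the clock closely, had 6.30, 6.70, 6.81 and 7.29 at 24 weeks and 11.29, 6.71, 12.57 and 11.39 at 16 weeks. The difference was -3.71 ± 0.86 (adjusted p = 0.41). The SD of Dbp was 2.59 at 16 weeks and 0.41, 0.30 and 0.25 at 24, 8 and 4 weeks. The shared SD therefore makes this standard error too small, and the unadjusted p of such split genes too favourable. Arntl, the activator, ran the other way with 10.70, 11.01, 10.93 and 10.38 against 6.90, 11.23, 6.62 and 6.58 (2.92 ± 0.76, adjusted p = 0.502). For both genes replicates 1, 3 and 4 at 16 weeks stood far from all 24 week arrays, and replicate 2 lay among them for Dbp and just above them for Arntl.

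Npas2, a partner of Arntl, had 10.39, 10.63, 10.83 and 8.49 at 24 weeks and 6.95, 10.83, 6.80 and 6.57 at 16 weeks (2.30 ± 0.76, adjusted p = 0.61). Clock itself had 13.15 to 13.42 against 12.47, 13.52, 12.43 and 12.46 (0.55 ± 0.20, adjusted p = 0.63). Nfil3, a repressor that binds the same sites as Dbp, had 7.20, 7.63, 7.22 and 6.96 against 6.14, 7.10, 6.35 and 6.41 (0.76 ± 0.18, adjusted p = 0.418). Arntl, Npas2, Clock and Nfil3 were thus low in replicates 1, 3 and 4 at 16 weeks, and the fourth 24 week array was the lowest of its group for all but Clock.

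The repressors and outputs were opposite. Nr1d1 (REV-ERBα), which represses Arntl, had 8.93, 7.62, 9.07 and 7.36 at 24 weeks and 11.68, 7.92, 11.73 and 11.49 at 16 weeks (-2.46 ± 0.74, adjusted p = 0.546). Nr1d2 (REV-ERBβ) had 9.71, 9.30, 9.73 and 9.89 against 12.71, 9.02, 13.09 and 13.03 (-2.31 ± 0.67, adjusted p = 0.51). Per3 had 5.70, 5.67, 5.74 and 6.89 against 8.16, 5.87, 8.45 and 8.33 (-1.70 ± 0.45, adjusted p = 0.506). Again the second 16 week array fell within the 24 week range or close to it. Tef, a relative of Dbp, differed by -1.40 ± 0.40, Bhlhe41, a repressor of E-box genes, by -1.18 ± 0.29, Per2 by -1.13 ± 0.51, Wee1, a cell cycle kinase under clock control, by -0.90 ± 0.38, and Cry2 by -0.74 ± 0.26. Rora (0.01 ± 0.17), Cry1 (0.24 ± 0.33) and Per1 (-0.75 ± 0.62) had an unadjusted p above 0.05, as did Hlf (-0.66 ± 0.37) and Bhlhe40 (-0.64 ± 0.31).

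Without the second 16 week array 4 clock genes were called higher and 6 lower among the 18, where the share over all genes was 0.114% higher and 0.131% lower (0.245% in all). The called genes were Arntl (4.05, adjusted p = 1.42e-07), Npas2 (3.31), Nfil3 (0.96) and Clock (0.82) on the higher side and Dbp (-4.97, adjusted p = 3.00e-06), Nr1d1 (-3.39), Nr1d2 (-3.29), Per3 (-2.31), Tef (-1.94) and Bhlhe41 (-1.57) on the lower. Among the 16 week arrays the second was the nearest to the 24 week mean for 16 of the 18 genes. Since these same genes set that array apart, their calls without it are a description and no test. Without the fourth 24 week array none of the 18 was called, although that array had the highest 24 week value of Dbp, Per3, Tef and Bhlhe41 and the lowest of Arntl and Npas2. The hour at which animals were sampled is not given in the sources used here, and its part in these values was not tested.

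For Dbp and Arntl the younger wild-type arrays lay near the 24 week arrays. Dbp averaged 6.64 ± 0.25 at 4 weeks (SD, n = 3) and 6.90 ± 0.30 at 8 weeks (SD, n = 4), and Arntl 11.05 ± 0.11 and 11.17 ± 0.33. Other clock genes did not follow this order: at 8 weeks Per2 averaged 8.73 ± 0.73 and Per1 9.50 ± 0.32 (SD, n = 4), above their means at 16 weeks (8.47 and 8.39) and 24 weeks (7.34 and 7.64). The mean over the 18 clock genes was 8.69 at 8 weeks, 8.99 at 16 weeks and 8.39 at 24 weeks. In ob/ob mice at 16 weeks Dbp was 7.63, 9.99, 6.13 and 6.22 and Arntl 9.92, 7.20, 10.88 and 10.62, so there the second array stood apart and the first less so. All 4 ob/ob arrays at 24 weeks had Dbp between 6.02 and 6.24.

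**Figure D2:**
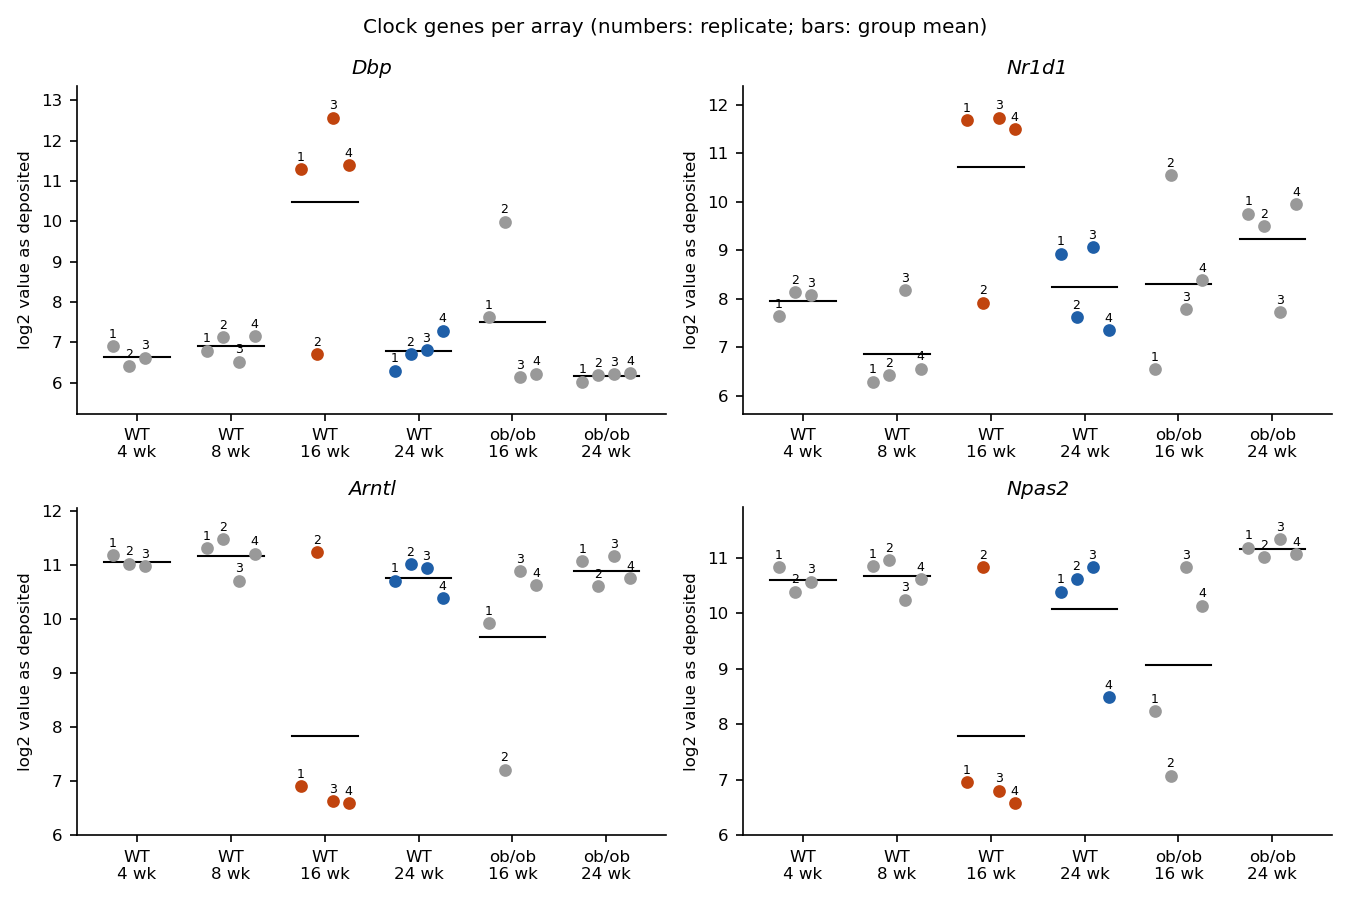
Log2 signal as deposited (vertical) of Dbp, Nr1d1, Arntl and Npas2 in every array of 6 groups (horizontal; WT is wild type, wk is weeks); points are arrays with their replicate number, bars are group means, red is 16 and blue 24 weeks of wild type. In wild type at 16 weeks replicates 1, 3 and 4 lie high for Dbp (11.29 to 12.57) and low for Arntl (6.58 to 6.90), while replicate 2 lies with the other ages.

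Promoters of the clock genes were searched for the 3 motifs through which the clock is known to act, because these genes stood apart in the same arrays. The windows run from 250 bases before to 50 bases after a gene's start (RefSeq, GRCm38.p6), and 15 of the 18 genes had one. The E-box CACGTG, bound by Arntl with Clock, was in the windows of Bhlhe41, Cry1, Per1 and Tef, 4 of 15, and in 7.15% of all 32851 promoters. The D-box TTANGTAA, read on both strands and bound by Dbp, Tef, Hlf and Nfil3, was in that of Per3, with 2 matches, and in 2.32% of all. The core of the ROR and REV-ERB element, TAGGTCA on either strand, was in those of Arntl and Nfil3 and in 2.61% of all. Clock genes were counted if any of their windows matched, while the shares over all promoters count windows, so the units differ. A match describes letters and not binding. The 4 windows below, 5′ to 3′ on the gene's strand, belong to genes called without the second 16 week array, and capitals mark the motif; in Nfil3 it stands on the opposite strand.
Arntl promoter, chr7:113207261-113207560, plus strand: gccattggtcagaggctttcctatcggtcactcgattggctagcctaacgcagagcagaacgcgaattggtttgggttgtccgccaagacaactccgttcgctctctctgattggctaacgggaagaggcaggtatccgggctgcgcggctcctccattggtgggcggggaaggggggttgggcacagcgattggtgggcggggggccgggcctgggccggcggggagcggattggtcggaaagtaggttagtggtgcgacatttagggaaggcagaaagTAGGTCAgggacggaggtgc
Nfil3 promoter, chr13:52980990-52981289, minus strand: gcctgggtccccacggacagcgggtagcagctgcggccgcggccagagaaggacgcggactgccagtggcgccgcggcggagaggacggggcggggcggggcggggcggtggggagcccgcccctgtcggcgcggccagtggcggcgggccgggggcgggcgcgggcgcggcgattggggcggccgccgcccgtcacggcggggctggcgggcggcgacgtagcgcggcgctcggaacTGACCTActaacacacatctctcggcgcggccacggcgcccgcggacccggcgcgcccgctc
Per3 promoter, chr4:151044616-151044915, minus strand: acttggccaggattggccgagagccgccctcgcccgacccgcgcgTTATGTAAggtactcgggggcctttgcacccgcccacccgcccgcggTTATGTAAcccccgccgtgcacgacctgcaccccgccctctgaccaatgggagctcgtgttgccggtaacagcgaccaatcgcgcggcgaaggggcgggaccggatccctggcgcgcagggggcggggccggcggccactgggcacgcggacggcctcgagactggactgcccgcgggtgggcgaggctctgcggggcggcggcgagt
Bhlhe41 promoter, chr6:145865371-145865670, minus strand: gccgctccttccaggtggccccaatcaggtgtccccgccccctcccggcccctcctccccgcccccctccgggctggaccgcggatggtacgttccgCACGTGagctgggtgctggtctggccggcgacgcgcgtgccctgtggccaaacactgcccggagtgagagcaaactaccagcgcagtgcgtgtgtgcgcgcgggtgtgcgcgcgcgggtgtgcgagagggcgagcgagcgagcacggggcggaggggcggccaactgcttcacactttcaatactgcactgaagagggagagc

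Genes of plasma proteins and liver metabolism set the same 16 week arrays apart, in other proportions. Alb, albumin, had 10.01, 9.46, 10.29 and 8.47 at 24 weeks and 15.43, 9.35, 12.86 and 13.39 at 16 weeks (-3.20 ± 0.89, adjusted p = 0.506). Ahsg had 5.78, 5.81, 5.65 and 5.58 against 11.46, 5.87, 8.20 and 8.68 (-2.84 ± 0.76, adjusted p = 0.506). Trf had 7.71, 7.81, 7.55 and 7.75 against 11.42, 7.91, 9.60 and 9.63 (-1.94 ± 0.47, adjusted p = 0.447). Replicate 1 at 16 weeks was the highest, replicates 3 and 4 followed at like levels, and replicate 2 did not stand out from the 24 week arrays. Apoa2, an apolipoprotein of HDL, had 6.43, 6.07, 6.23 and 6.39 against 9.66, 6.03, 8.25 and 8.37 (-1.80 ± 0.52). Cps1 had 4.83, 4.83, 4.79 and 4.84 against 6.99, 4.84, 5.93 and 6.41 (-1.22 ± 0.31, adjusted p = 0.468), and Fgb, the fibrinogen β chain, 4.82 to 4.98 against 8.09, 4.88, 6.04 and 6.09 (-1.42 ± 0.44). Cps1 passed the filter on low signal only through its 16 week arrays.

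A list of 28 hepatocyte genes was drawn up after these values had been seen, so its counts are a description and no test. Of the 23 measured above the filter all 23 had a negative difference, as had 9848 of all 22892 genes, with a median of -0.83. Between the ages 4 did not overlap, where 2.19% of all genes did not. Cps1, Tat, Apoh and Cyp3a11 passed the filter only through their 16 week arrays, so the filter itself favoured a negative difference for them. The mean over the 23 was 8.24, 6.10, 7.09 and 7.28 in the 16 week arrays and 6.30, 6.04, 6.13 and 6.14 in the 24 week arrays. The first 16 week array was the highest of its group for 21 of the 23, and the second was the lowest for 22. Wild-type means of the list were 6.27 ± 0.08 at 4 weeks (SD, n = 3) and 6.24 ± 0.12 at 8 weeks (SD, n = 4), and at those ages 8 of the 23 genes lay above the intron control level. Without the second 16 week array 8 of the 23 were called lower, beside 0.131% of all genes, among them Alb (-4.34, adjusted p = 0.00349), Ahsg (-3.74), Trf (-2.51), Apoa2 (-2.48) and Cps1 (-1.62). With array quality weights 16 of the 23 were called, where 943 genes were called in all. That fit rested mostly on the fourth 16 week array, with a weight of 5.643 against 0.422 for the second. Kng1 and Hpd are liver genes that kidney tubules express as well, and their levels were 7.33 to 8.63 and 8.66 to 12.76. Whether other tissue or a change within the kidney lies behind these values was not tested. In ob/ob mice at 16 weeks Ahsg had 6.14, 6.22, 5.57 and 5.71 and Alb 10.51, 10.17, 8.99 and 8.39. The first and second of these arrays, which had the higher Dbp, were the highest for both genes, with Ahsg near the intron control level. At 24 weeks the first and second ob/ob arrays had Alb at 12.74 and 12.59 and Ahsg at 6.87 and 6.89. Their Dbp was 6.02 and 6.19, so there the higher liver genes went without higher Dbp.

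**Figure D3:**
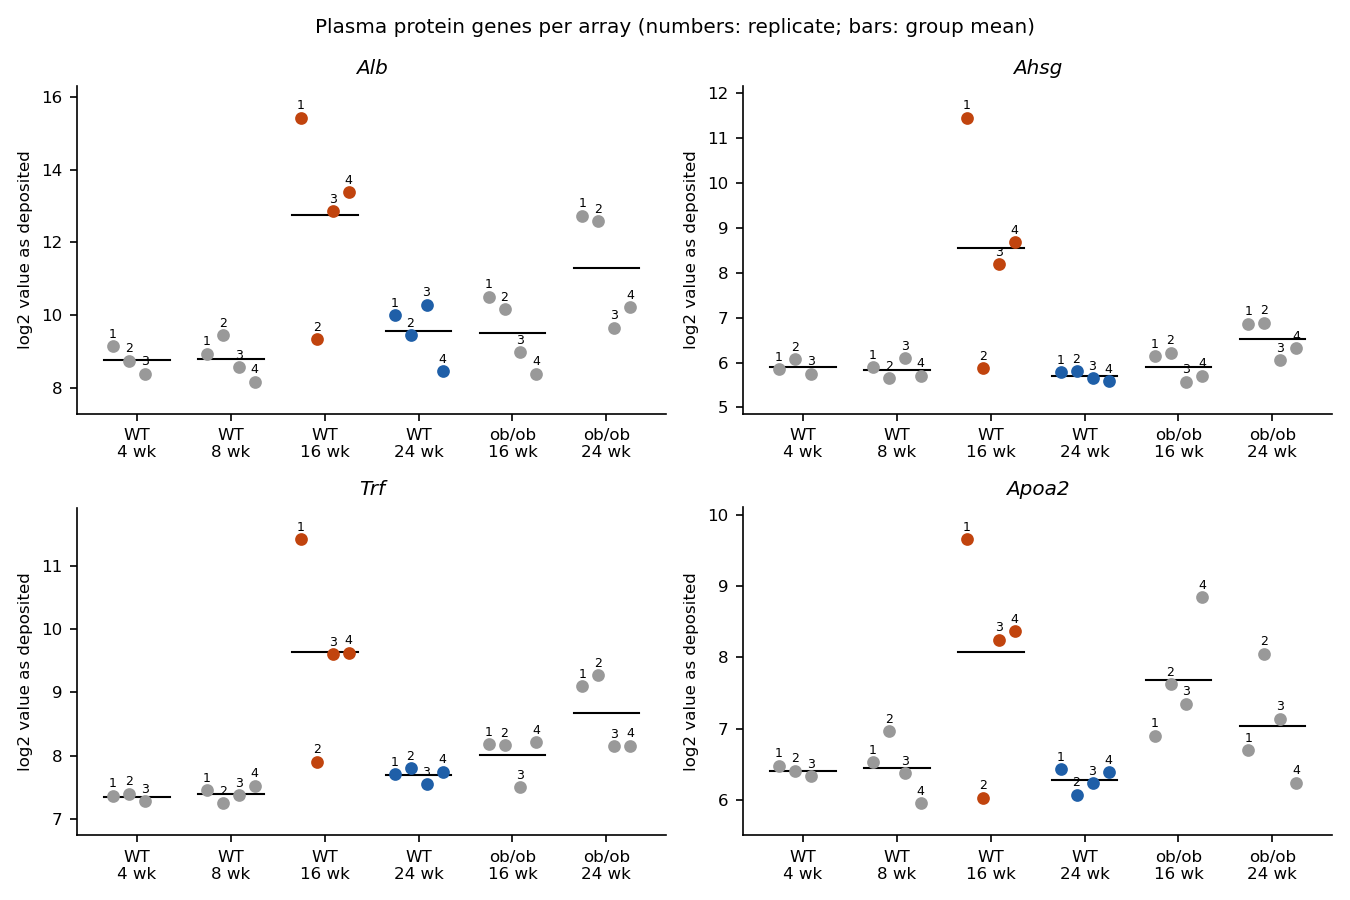
Log2 signal as deposited (vertical) of Alb, Ahsg, Trf and Apoa2 in every array of 6 groups (horizontal; WT is wild type, wk is weeks); points are arrays with their replicate number, bars are group means, red is 16 and blue 24 weeks of wild type. Wild-type replicates 1, 3 and 4 at 16 weeks lie well above all 24 week arrays for each gene, with replicate 1 highest (Ahsg 11.46). Replicate 2 lies among the 24 week arrays for Alb, just above them for Ahsg (5.87) and Trf, and just below them for Apoa2.

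Small RNA genes set the fourth 24 week array apart. Mir466d had 8.26, 7.53, 7.59 and 12.20 at 24 weeks and 12.21, 11.42, 11.03 and 11.30 at 16 weeks (-2.60 ± 0.82, adjusted p = 0.567). Mir467h had 10.20, 10.13, 9.94 and 13.58 against 13.53, 12.76, 11.95 and 12.78 (-1.79 ± 0.67, adjusted p = 0.651). Rn5s, the 5S ribosomal RNA, had 16.39, 16.15, 14.06 and 10.56 against 10.77, 12.04, 12.14 and 11.87 (2.59 ± 0.93, adjusted p = 0.63). In each case the fourth 24 week array lay with or beyond the 16 week arrays and the other three did not. Mir466f-1, with 15.62, 15.04, 15.40 and 13.18 against 12.94, 12.12, 10.45 and 11.62, was higher in all 24 week arrays (3.03 ± 0.61, adjusted p = 0.243), as was Mir669h (16.03, 15.50, 16.13 and 14.72 against 13.98, 13.48, 12.10 and 12.70; 2.53 ± 0.49, adjusted p = 0.243).

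These genes belong to a group of repeated microRNAs whose members had differences of opposite sign: Mir466d and Mir467h were lower at 24 weeks while Mir466f-1, Mir669h, Mir297a-3 (2.14 ± 0.44) and Mir466l (1.72 ± 0.30) were higher, none past the threshold. Near-identical copies can share probes, so single members are uncertain. A mature sequence was found in RefSeq for 301 of 404 microRNA genes tested whose symbol starts with Mir. Sequences are given for a member of this group and for Mir224, which had 4.58, 4.48, 4.49 and 5.46 at 24 weeks and 5.97, 6.06, 5.48 and 6.87 at 16 weeks (-1.34 ± 0.30, adjusted p = 0.348). Capitals mark bases 2 to 8.
mmu-miR-467h, chr9:115381898-115381919, plus strand: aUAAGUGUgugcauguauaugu
mmu-miR-224-5p, chrX:72261085-72261105, minus strand: uAAGUCACuagugguuccguu
mmu-miR-224-3p, chrX:72261037-72261058, minus strand: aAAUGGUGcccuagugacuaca
No seed was shared among miR-6354, miR-467h and the arms of miR-224.

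Over all 425 microRNA genes tested, 27 were higher and 59 lower at an unadjusted p under 0.05, beside 3.75% and 2.68% of all genes, and the median was -0.06; Mir6354 was the member that passed. The 68 copies of the 5S ribosomal RNA gene, which share 35 distinct profiles, had a median of 1.41, with 48 higher and 0 lower. Small nucleolar RNA genes (60) had a median of 0.16 with 2 higher and 1 lower. Without the fourth 24 week array 150 genes (0.657%) passed, 87 higher and 63 lower. They included 34 of the 68 copies of 5S and 29 of the 425 microRNA genes. A further 52 had predicted or RIKEN names (Gm or Rik), a large class. Of the 5683 Gm genes of the main fit 23 were called higher and 26 lower, beside 0.657% of all genes. Because copies share probe sets the 150 hold 115 distinct profiles. Rn5s then differed by 3.83 (adjusted p = 0.00318), Mir466d by -3.70, Mir467h by -2.67 and Mir466f-1 by 3.57. In ob/ob mice Mir466d was also split within groups, at 8.08, 8.24, 12.77 and 11.62 at 16 weeks and 9.76, 9.34, 8.19 and 13.74 at 24 weeks. The fourth 24 week wild-type array had the lowest exon to intron separation of the 8 (0.832), and the part of array quality in the small RNA values was not tested beyond a fit with the separation as a covariate, in which 0 genes passed.

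**Figure D4:**
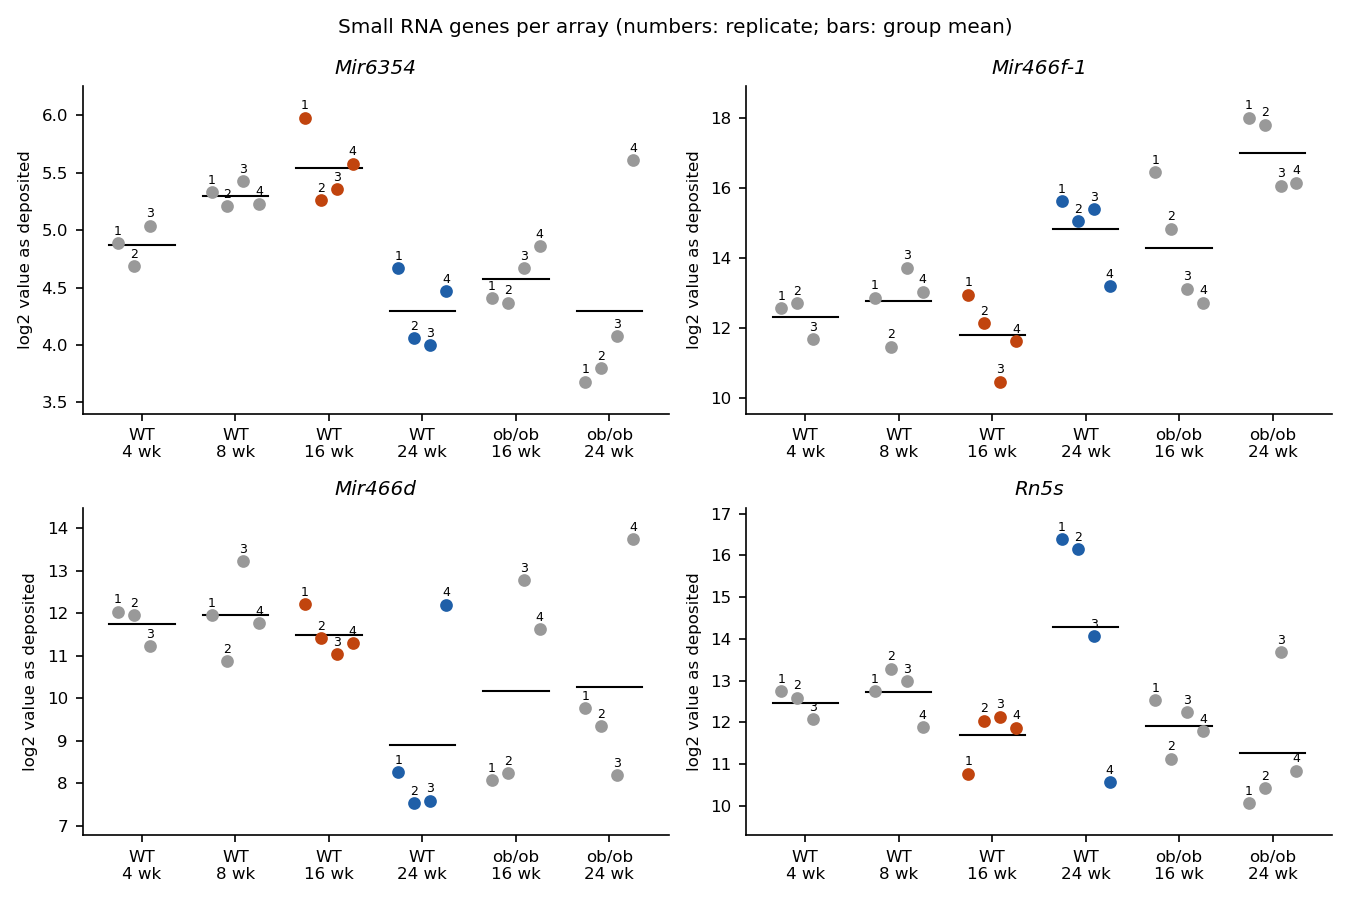
Log2 signal as deposited (vertical) of Mir6354, Mir466f-1, Mir466d and Rn5s in every array of 6 groups (horizontal; WT is wild type, wk is weeks); points are arrays with their replicate number, bars are group means, red is 16 and blue 24 weeks of wild type. Replicate 4 of wild type at 24 weeks lies apart from replicates 1 to 3 for Mir466d (12.20) and Rn5s (10.56), and Mir6354 is lower in all 4.

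Of the 150 genes that passed without the fourth 24 week array, 26 remained after most repeated, predicted and large-family symbols were set aside. These still hold a taste receptor, Tas2r108, and AF357428, which has no gene name. Besides Grem1 (1.03), H2bc14 (1.02), Rflnb (0.91) and Spsb3 (0.42) they included Ccn1, a matricellular protein (1.13, adjusted p = 0.0253), Egf, epidermal growth factor of the distal tubule (-1.15, adjusted p = 0.0267), and Col5a2, a collagen V chain (-0.72, adjusted p = 0.0407). Picked after their values were seen, Aldh1a7 (2.35), Aldh1a1 (1.81) and Rdh10 (0.97) are enzymes of aldehyde and retinoid metabolism that were also higher. With all arrays in the fit, Ccn1 had 11.83, 11.47, 11.55 and 10.64 at 24 weeks and 10.48, 10.34, 10.62 and 10.51 at 16 weeks. Those values did not overlap, and the difference was 0.89 ± 0.24 (adjusted p = 0.506).

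Markers of the glomerular cells did not pass at any gene. Of 25 podocyte genes 0 had an unadjusted p under 0.05, and the median was 0.03. Nphs1 had 10.84, 10.73, 10.68 and 11.21 at 24 weeks and 9.83, 12.26, 10.64 and 10.46 at 16 weeks (0.07 ± 0.40). Wt1, the transcription factor of podocytes, had 9.31, 9.20, 9.40 and 9.79 against 8.34, 10.73, 8.93 and 8.91 (0.20 ± 0.39), and Podxl, podocalyxin, 15.81, 15.67, 15.88 and 16.09 against 15.43, 17.11, 16.0 and 15.71 (-0.20 ± 0.31). The second 16 week array was the highest of the 8 for each of these, and the first 16 week array the lowest. The sign of these 3 differences depended on single arrays: without the first 16 week array Nphs1 was -0.26 and Wt1 -0.10, and without the second Podxl was 0.15. Of the list, Npnt (nephronectin, 0.52 ± 0.26) and Rhpn1 (rhophilin, 0.81 ± 0.45) had the smallest p, and Rhpn1 alone was called without the second 16 week array (1.42, adjusted p = 0.0222).

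The mean over the podocyte list was 12.01 in the second 16 week array, 10.30, 10.92 and 10.76 in the other 16 week arrays and 10.95 to 11.19 at 24 weeks. The same array led for endothelium and mesangium. The endothelial mean was 11.57 there, 10.33 to 10.67 in the other three and 10.57 to 10.86 at 24 weeks; the mesangial and smooth muscle mean was 10.18, 8.94 to 9.41 and 9.18 to 9.46. Ehd3, an endothelial marker of the glomerulus, had 17.01 in it, 13.82 to 14.48 in the other 16 week arrays and 13.46 to 14.94 at 24 weeks. None of 21 endothelial genes (median -0.09) and 17 mesangial genes (median -0.14) had an unadjusted p under 0.05. In whole glomeruli, fewer cells of a type and less RNA per cell cannot be told apart.

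Parietal epithelium, which lines Bowman's capsule, had 12 genes with a median of 0.13. Cldn1, a tight junction protein, was 10.72, 10.24, 10.53 and 9.61 at 24 weeks and 9.26, 10.15, 9.50 and 9.43 at 16 weeks (0.69 ± 0.26, adjusted p = 0.653), and Cd24a was lower (-0.55 ± 0.25, adjusted p = 0.773). Neither passed.

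Tubule genes were near their 16 week levels as a group, with wide spread in a few. Of 21 proximal genes 2 were higher at an unadjusted p under 0.05 and 0 lower, beside 3.75% and 2.68% of all genes (median 0.04). The list mean was 15.93 to 16.22 at 24 weeks and 15.69 to 16.29 at 16 weeks. G6pc, glucose-6-phosphatase of gluconeogenesis, had 17.61, 18.03, 17.88 and 17.37 against 16.55, 17.70, 16.69 and 16.98 (0.74 ± 0.26, adjusted p = 0.63). Slc22a12, the urate transporter URAT1, had 14.48, 16.03, 15.32 and 13.29 against 13.52, 13.76, 13.97 and 12.34 (1.38 ± 0.53, adjusted p = 0.663). Slc34a1 differed by -0.03 ± 0.06, with means of 19.357 and 19.385, near the highest deposited value of 19.93. Whether its probe set was near saturation was not tested. Both groups overlapped for G6pc and for Slc22a12.

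Of 20 distal nephron and collecting duct genes 0 were higher and 2 lower at an unadjusted p under 0.05. The shares over all genes were 3.75% and 2.68%, and the list median was -0.05. Umod was 18.77, 18.82, 19.39 and 19.30 at 24 weeks and 19.60, 19.35, 19.51 and 19.50 at 16 weeks (-0.42 ± 0.14, adjusted p = 0.615). Slc12a1, the NKCC2 cotransporter of the same segment, was 16.19, 15.65, 16.95 and 17.46 against 17.46, 16.92, 17.42 and 17.68 (-0.80 ± 0.34, adjusted p = 0.722). The first pair of 24 week arrays was low for both genes, and the list mean ran from 11.58 to 12.94 at 24 weeks and from 11.26 to 13.00 at 16 weeks. Aqp2, the collecting duct water channel, ranged from 13.33 to 15.91 and from 11.39 to 15.15, with its lowest value in the second 16 week array. The share of tubule carried into each preparation and its part in these values were not tested beyond a fit with the proximal mean as a covariate, in which 0 genes passed.

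Injury and senescence genes showed wide single-gene differences without a call. Havcr1 (KIM-1), induced in injured proximal tubule, had 8.17, 10.12, 9.94 and 8.82 at 24 weeks and 8.36, 6.99, 8.31 and 7.17 at 16 weeks (1.56 ± 0.49, adjusted p = 0.567). It averaged 7.0 ± 0.42 at 4 weeks (SD, n = 3) and 7.41 ± 0.87 at 8 weeks (SD, n = 4), and 6.51 and 6.39 in ob/ob at 16 and 24 weeks. Cdkn1a (p21), the cell cycle inhibitor, had 8.57, 9.03, 8.92 and 9.46 against 7.39, 8.91, 7.22 and 7.91 (1.14 ± 0.40, adjusted p = 0.63), and its mean had been 10.82 ± 0.57 at 8 weeks (SD, n = 4). Cdkn2a (p16), which marks senescent cells, was near background with 5.31, 5.39, 5.15 and 5.64 against 5.84, 5.72, 5.43 and 5.58 (-0.27 ± 0.11, adjusted p = 0.666). Of 13 injury genes 2 were higher and 1 lower at an unadjusted p under 0.05, beside 3.75% and 2.68% of all genes (median 0.10), and of 15 senescence genes 1 was higher and 1 lower (median -0.09); Cdkn1a and Cdkn2a sit in both lists. Kl, the ageing suppressor Klotho of the distal tubule, differed by -0.20 ± 0.19.

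Matrix genes were flat as lists. Of 18 basement membrane genes 0 had an unadjusted p under 0.05 (median -0.02). Col4a3, the α3 chain of the mature glomerular basement membrane, had 11.82, 12.04, 11.87 and 12.02 at 24 weeks and 11.08, 12.67, 11.33 and 11.21 at 16 weeks (0.36 ± 0.26, adjusted p = 0.929). The second 16 week array was again the highest, and without it Col4a3 was called (0.73, adjusted p = 0.00749). Col4a1, of the α1 chain, differed by 0.06 ± 0.24, a sign that turned to -0.01 without the first or without the fourth 16 week array. Of 26 fibrosis genes 2 were higher, Ccn1 and Lox, a collagen crosslinking enzyme (0.19 ± 0.09), and 1 lower, Col5a2 (-0.48 ± 0.20), with a median of -0.02. Over all genes 3.75% were higher and 2.68% lower at an unadjusted p under 0.05.

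Immune lists had no gene with a small p, and the macrophage list (means of 6.39 to 6.93 per array) and the lymphocyte list (5.57 to 6.01) lay near background. Median differences were -0.02 for 19 macrophage and myeloid genes, -0.08 for 13 lymphocyte and plasma cell genes, 0.02 for 13 MHC genes, 0.03 for 14 complement genes, 0.04 for 15 cytokine and adhesion genes and -0.10 for 17 interferon response genes, and 0 members of any of them had an unadjusted p under 0.05. The smallest p among interferon genes belonged to Ifit3 (-0.36 ± 0.20) and among adhesion genes to Vcam1 (-0.41 ± 0.22). Antibody segments were more often higher: of 63 kappa variable segments 11 were higher and 2 lower, and of 92 heavy variable segments 9 and 4, at an unadjusted p under 0.05, beside 3.75% and 2.68% of all genes. Jchain, which joins antibody chains in plasma cells, had 5.73, 6.70, 6.20 and 6.67 at 24 weeks and 6.10, 6.24, 5.92 and 6.14 at 16 weeks (0.22 ± 0.18), with overlap. Variable segments resemble each other, so single segments are uncertain. T cell receptor alpha segments, 59 in number, had 1 higher and 5 lower. Erythroid (2 genes, median 0.27) and adipocyte lists (9 genes, median 0.13, 2 higher) were small. The 2 higher adipocyte genes, Cidec (means of 5.33 against 5.10) and Ucp1 (5.15 against 4.83), lay below the intron control medians.

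No gene of the metabolic lists passed the threshold, and most members of the lipid and sterol synthesis and oxidative phosphorylation lists had positive differences. Of 14 lipid and sterol synthesis genes 13 had a positive difference (median 0.22). Among them 1 was higher at an unadjusted p under 0.05, beside 3.75% of all genes. That gene was Fasn, fatty acid synthase, with 9.79, 9.51, 9.50 and 9.73 at 24 weeks and 8.68, 9.37, 8.97 and 9.27 at 16 weeks (0.57 ± 0.19, adjusted p = 0.615). Its groups did not overlap. The positive share over all genes was 13044 of 22892. Of 19 oxidative phosphorylation genes 17 were positive and 0 had a small p (median 0.09), and of 19 fatty acid oxidation genes 12 were positive with 1 small p (median 0.10), Acot1, a peroxisome proliferator responsive thioesterase (1.08 ± 0.42, adjusted p = 0.663). Of the 20 glycolysis and hypoxia genes 10 were positive (median 0.01). Among them Adm, adrenomedullin, had 11.54, 11.66, 10.59 and 10.62 against 8.77, 10.60, 9.54 and 9.74 (1.44 ± 0.40, adjusted p = 0.506), and Pfkfb3, a glycolytic regulator, was lower (-0.44 ± 0.19, adjusted p = 0.724).

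Hormone-related lists gave these values. Of 13 glucocorticoid targets 10 were negative (median -0.29), as were 9848 of all 22892 genes, and Per1 of this list sits in the clock list too. Klf9, with 12.81, 12.71, 12.84 and 12.38 at 24 weeks and 13.23, 12.73, 13.49 and 13.78 at 16 weeks, had the smallest p (-0.62 ± 0.23, adjusted p = 0.638). Klf9 too was nearest to the 24 week level in the second 16 week array. Of 13 genes of the kidney that respond to sex hormones 11 were positive (median 0.10), as were 13044 of all 22892 genes. Among them Acsm3 had 6.01, 6.09, 6.07 and 6.30 against 5.89, 5.67, 5.69 and 5.69 (0.38 ± 0.13, adjusted p = 0.617). Of 15 vasoactive genes (median 0.04) Avpr1a, the vasopressin V1a receptor, was higher at an unadjusted p under 0.05, beside 3.75% of all genes (0.82 ± 0.24, adjusted p = 0.524). The 18 genes of insulin, IGF and leptin signalling had 0 small p and a median of -0.08. Lep, the gene mutated in ob/ob mice, lay at background (5.03 to 5.30 against 4.88 to 5.28), and Lepr, its receptor, differed by -0.08 ± 0.20. Phosphate, vitamin D and calcium genes (15) had a median of -0.04 with 0 small p.

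Among stress and growth lists, 18 immediate early genes had a median of 0.10 and 1 higher gene at an unadjusted p under 0.05, beside 3.75% of all genes. That gene was Nr4a1, with 10.33, 8.75, 8.13 and 9.28 against 7.71, 8.84, 7.97 and 8.53 (0.86 ± 0.38, adjusted p = 0.733). The 17 genes of the unfolded protein response (median 0.07), 12 heat shock and cold response genes (median 0.01) and 20 cell cycle genes (median 0.00) had none with an unadjusted p under 0.05. Of 16 oxidative stress and NRF2 genes (median 0.11) Mt1, a metallothionein, was lower (-0.63 ± 0.28, adjusted p = 0.76). Over all genes 2.68% were lower at an unadjusted p under 0.05. No member of the 33 lists passed the threshold.

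**Figure D5:**
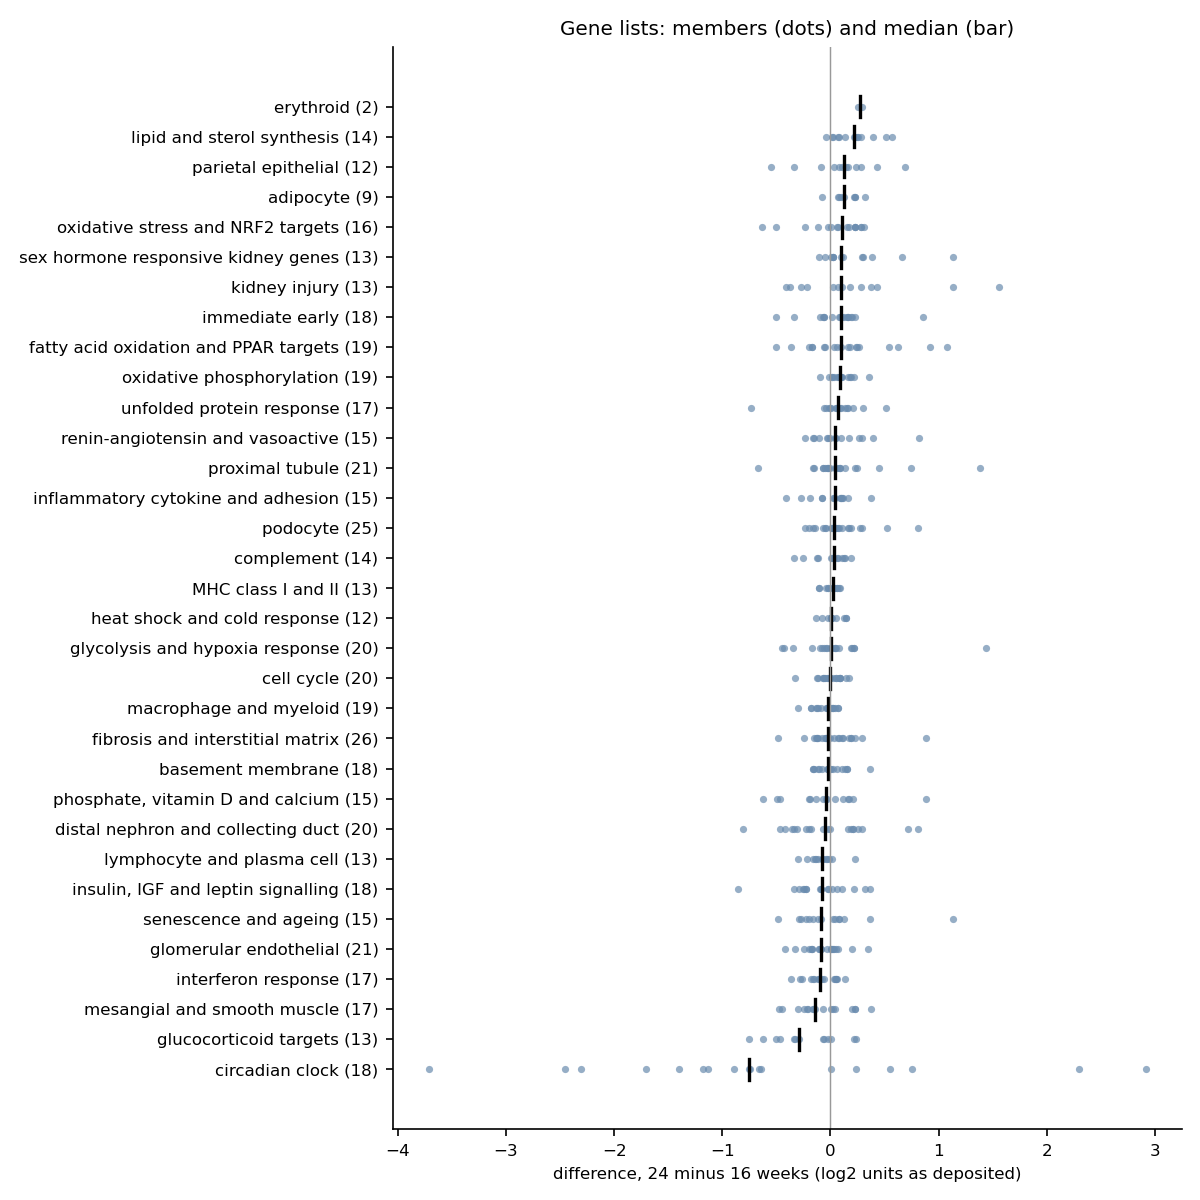
Differences between 24 and 16 weeks (log2 units as deposited, horizontal) of the tested members of each of the 33 gene lists (rows, number of genes in brackets); dots are genes and bars are list medians. The medians run from -0.75 (circadian clock) and -0.29 (glucocorticoid targets) to 0.27 (erythroid), and the clock genes reach from -3.71 to 2.92.

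Whether the step from 16 to 24 weeks differed between genotypes was tested as an interaction over all 30 arrays. No gene of 24099 passed (0%, limma with Benjamini-Hochberg adjustment), while 4483 (18.6%) had an unadjusted p under 0.05. With the exon to intron separation as covariate that number was 1716, and again no gene passed. The smallest p belonged to Gm4107, where the ob/ob step minus the wild-type step was 1.01 ± 0.17 (adjusted p = 0.051), followed by Slc27a3, a fatty acid transport protein (-0.55 ± 0.10), Cstb, the protease inhibitor cystatin B (-1.35 ± 0.26), Gm10713 (-0.75 ± 0.15) and Dpysl3, of the cytoskeleton (-1.29 ± 0.26), each with an adjusted p of 0.10. Of the genes described above, Gm12129 had an interaction of 0.99 ± 0.20 (adjusted p = 0.10), since its ob/ob means were 10.26 and 10.33. Mir6354 had 0.96 ± 0.38 (adjusted p = 0.192). Nphs1 (-2.30 ± 0.79, adjusted p = 0.154), Podxl (-2.62 ± 0.89) and Wt1 (-1.85 ± 0.63) had lower steps in ob/ob, where 3 of the 4 arrays at 24 weeks had an exon to intron separation of 0.762 to 0.783. Adm (-3.83 ± 0.83), Avpr1a (-2.02 ± 0.43), Trf (2.59 ± 0.56) and Ahsg (3.47 ± 0.82) had adjusted p of 0.10 to 0.106. Single arrays decided this count as well: 3703 genes passed without the third ob/ob array at 24 weeks, 415 without the second wild-type array at 16 weeks, 52 without the fourth wild-type array at 24 weeks and at most 4 without any other.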

How the data were processed

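Total RNA of sieved glomeruli, 1 animal per array, was read on Affymetrix arrays. The authors deposited log2 values, made with Affymetrix Expression Console 1.4 by RMA (robust multi-array averaging), per the submitters' processing notes. They were used as deposited, and the notes give no further settings here. Symbols came from the platform annotation, updated through RefSeq: 30604 probe sets had 1 symbol, 2146 several and 33206 none; of 355 genes with several probe sets the brightest was used, and 347 tested genes share values with another. Genes with log2 of at least 5 in 3 of the 15 wild-type arrays were tested with limma 3.58.1 (R 4.3.3), 1 mean per group, empirical Bayes (residual df 11, median residual SD 0.19), contrast 24 minus 16 weeks, adjusted p under 0.05. The interaction used all 30 arrays. The fit was tested on simulated data. Replicate numbers appear in the labels only as numbers.

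Members and the 33 gene lists were chosen with earlier results of these data known. Named genes were the 10 of smallest p in each direction (no predicted or large-family genes), up to 2 members per list by p, fixed markers and the 5 smallest interactions; microRNA, 5S, antibody and liver genes were added after their values were seen. Alternatives were filters, arrays in the fit, scaling, array weights, trend and robust settings, probe set rules, covariates, a replicate block and leaving out each array.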

Additional observations from a re-analysis of the deposited data

Results flagged for a closer look

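In groups of 4 arrays a value was marked here when its gap to the nearest of the other three exceeded the 95% critical value of Dixon's test (0.829 of the group's range). Of 200 checks of a gene or a list mean within a group, 23 were marked, and chance marks about 1 in 20 groups. Many of the checked genes were chosen by their p or after their values were seen, so these marks are no test of an excess.

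Most concerned the second wild-type array at 16 weeks. Among clock genes it had Arntl at 11.23 (others 6.58 to 6.90), Npas2 at 10.83 (6.57 to 6.95), Clock at 13.52 (12.43 to 12.47), Nr1d1 at 7.92 (11.49 to 11.73), Nr1d2 at 9.02 (12.71 to 13.09), Per3 at 5.87 (8.16 to 8.45) and Tef at 7.44 (9.45 to 9.75). The transporter Slc16a1 was at 11.84 (9.10 to 9.30). Glomerular genes were high in it, with Npnt at 14.56 (13.31 to 13.45), Col4a3 at 12.67 (11.08 to 11.33) and Col4a1 at 9.92 (9.04 to 9.09), while Lepr was low at 7.0 (7.62 to 7.66). Its list means were 6.93 for macrophage and myeloid genes (6.39 to 6.45) and 6.01 for lymphocyte and plasma cell genes (5.61 to 5.65). The first 16 week array had Acsm3 at 5.89 (5.67 to 5.69), a parietal epithelial mean of 8.54 (8.72 to 8.75) and a complement mean of 8.38 (8.42 in each of the others).

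At 24 weeks the fourth array had Mir466d at 12.20 (7.53 to 8.26), Mir467h at 13.58 (9.94 to 10.20), Per3 at 6.89 (5.67 to 5.74) and a glycolysis and hypoxia mean of 10 (9.93 in the others). The first had Tex46 at 5.33 (5.12 to 5.14) and Avpr1a at 9.68 (10.50 to 10.67). Over all 22892 genes such a gap was found for 2.34% in the fourth 24 week array and for 1.96% and 1.95% in the second and first 16 week arrays. In the others it was 0.411% to 1.11%. Taken over the 4 arrays of each age together, these shares come near the 1 in 20 groups that chance marks.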

How the results depend on the processing

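The count of 2 genes was the same without a filter and with probe sets averaged per gene. It was 0 with a filter at log2 6, with only the 8 arrays compared, with trend and robust empirical Bayes, with the proximal tubule mean or the separation as covariate and with the replicate block, and 1 with all 30 arrays, cyclic loess, all probe sets (an unnamed probe set, higher) or an absolute difference of at least 1. Array quality weights gave 943 genes, 510 higher and 433 lower; they gave the fourth 16 week array a weight of 5.643 and the other three 0.422 to 0.855. Leaving out 1 array gave 0 to 150. The interaction count of 0 became 1 with cyclic loess, 7 with the replicate block and 4105 with array weights, and 0 to 3703 with 1 array left out; it stayed 0 with the separation as covariate and with the 16 arrays of both ages. Why the counts moved was not tested. Same-numbered arrays deviated from their group means with correlations of 0.05, -0.05, 0.34 and 0.09, and differently numbered ones with -0.38 to 0.29. Whether the numbers stand for a shared batch or pairing was not tested further.

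Of 66 named genes 61 kept their sign in every alternative. Podxl was 0.04 with array weights, and leaving out 1 array moved Nphs1 from -0.26 to 0.55, Wt1 from -0.10 to 0.70, Podxl from -0.41 to 0.15, Col4a1 from -0.01 to 0.28 and Lepr from -0.24 to 0.09. Without adjustment 942 to 2572 genes had a p under 0.05 when 1 array was left out. Signal over background limits genes near the intron controls, where differences are compressed.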
